A study of Mus musculus with 2 samples.

Results

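The TRBJ1 cluster is the upstream of the pair of J segment clusters in the mouse T cell receptor (TCR) beta locus, and it lies just before TRBC1, the first of the pair of beta constant genes. TRB chains were assigned to it when the annotated J gene of their contig was one of TRBJ1-1 to TRBJ1-7. This gave 3728 TRBJ1 chains among 9322 TRB chains and 13104 TRA and TRB chains in all. TCR transcripts of thymic CD4 single positive (SP) T cells had been sequenced in 1 library from wild-type C57BL/6J mice (WT) and 1 library from C57BL/6-Btla KO mice (Btla-/-), whose germline knockout removes the co-inhibitory receptor BTLA. Mice of both genotypes were 8 to 12 weeks old, and the cells were taken from thymocyte suspensions with a negative selection kit for naive CD4 T cells. The sources used here do not give the number or sex of the mice behind each library. The libraries hold TCR transcripts alone, so neither the cell type nor the loss of Btla could be checked against expressed marker genes. Among 6003 contigs of the WT and 7101 contigs of the Btla-/- library, 0 were TRG or TRD chains. Whether the TCR amplification kit could capture such chains was not tested. The count therefore does not show that cells with TRG or TRD chains were absent. Shares above 0 are given with their exact (Clopper-Pearson) 95% interval, and for a count of 0 the limit is the share that 3 counts would make up. The intervals cover counting error of chains or cells, not the spread between mice. With 1 library per genotype there was no replicate check and no test was made, and 2 shares are called apart where their exact intervals do not overlap.

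A beta chain is built in the thymus by joining a D segment to a J segment, and then a V segment to the DJ join. The recombinase cuts each J segment at a recombination signal, made of a heptamer next to the J, a spacer and a nonamer. Bases are then trimmed and added at the joins before ligation, and this junction encodes the third complementarity determining region (CDR3), the part of the beta chain that mainly meets the peptide. Because TRBD2 lies downstream of the TRBJ1 cluster, ordinary deletional joining gives TRBJ1 segments TRBD1 as partner, while TRBJ2 segments can be joined to either D. The primary transcript of a TRBJ1 chain is spliced to TRBC1 and that of a TRBJ2 chain to TRBC2.

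In GRCm38 the cluster spans 1824 bases of the plus strand of chromosome 6 from the start of TRBJ1-1 to the end of TRBJ1-7. The 7 segments are shown because their 5' ends carry both the signal read by the recombinase and the residues that the chains below keep or lose. Each line runs 5' to 3' and begins with the nonamer, the 12-base spacer and the heptamer in lower case. Capitals mark the J segment itself, placed by GENCODE M21 coordinates. They end where the J part of the chains ended, and for TRBJ1-7, which had no chains, at the annotated end.
TRBJ1-1 (chr6:41533836-41533911): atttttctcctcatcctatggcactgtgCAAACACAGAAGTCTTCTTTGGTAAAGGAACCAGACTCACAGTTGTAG
TRBJ1-2 (chr6:41533973-41534048): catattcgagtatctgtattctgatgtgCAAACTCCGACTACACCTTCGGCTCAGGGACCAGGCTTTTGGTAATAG
TRBJ1-3 (chr6:41534295-41534372): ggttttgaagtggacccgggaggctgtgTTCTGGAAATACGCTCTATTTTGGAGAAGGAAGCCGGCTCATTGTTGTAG
TRBJ1-4 (chr6:41534783-41534861): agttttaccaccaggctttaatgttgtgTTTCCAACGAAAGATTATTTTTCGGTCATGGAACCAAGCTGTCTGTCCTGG
TRBJ1-5 (chr6:41535056-41535133): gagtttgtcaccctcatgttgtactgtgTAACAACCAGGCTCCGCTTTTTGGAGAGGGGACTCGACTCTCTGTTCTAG
TRBJ1-6 (chr6:41535526-41535606): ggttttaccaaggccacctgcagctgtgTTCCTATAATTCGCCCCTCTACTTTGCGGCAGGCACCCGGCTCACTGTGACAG
TRBJ1-7 (chr6:41535614-41535687): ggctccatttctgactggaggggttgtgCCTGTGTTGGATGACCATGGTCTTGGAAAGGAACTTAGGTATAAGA
At the fixed heptamer position TRBJ1-1 matched the consensus CACTGTG at 7 of 7 bases, TRBJ1-5 at 6, TRBJ1-3 and TRBJ1-6 at 5, and TRBJ1-2, TRBJ1-4 and TRBJ1-7 at 4. At the nonamer position, set against GGTTTTTGT, TRBJ1-3 and TRBJ1-6 matched at 6 of 9 bases, TRBJ1-4 at 5 and the other 4 segments at 4. TRBJ1-7 is annotated as a J gene but lacked a motif that the 6 other segments held. Its 46 bases held no F or W followed by G or A, any residue and G in any frame. The capitals of the 6 other segments were followed by GT, the start of a splice donor site. For TRBJ1-7 no chain set this end, so the bases after its annotated end could not be compared with theirs.

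TRBJ1 chains made up nearly the same share of TRB chains in both libraries. They numbered 1649 of 4141 WT chains, or 39.8% (38.3–41.3%), and 2079 of 5181 Btla-/- chains, or 40.1% (38.8–41.5%). The difference, Btla-/- minus WT, was 0.306 percentage points, with an interval of -1.70 to 2.30. TRBJ2 chains held the rest. Depth was lower for TRBJ1 than for TRBJ2 chains in each library. The median TRBJ1 chain rested on 12 UMIs in WT cells and 9 in Btla-/- cells, where a UMI marks 1 captured transcript, and the median TRBJ2 chain on 14 and 11.

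TRBJ1-1, the segment nearest to TRBD1, was the most used, and the segments did not decline evenly along the cluster. TRBJ1-1 was carried by 493 WT and 581 Btla-/- chains, or 29.9% (27.7–32.2%) and 27.9% (26.0–29.9%) of TRBJ1 chains. TRBJ1-4 came next, with 319 and 439 chains, or 19.3% (17.5–21.3%) and 21.1% (19.4–22.9%). TRBJ1-1 and TRBJ1-4 were apart in both libraries. TRBJ1-2 followed with 267 and 360 chains, or 16.2% (14.4–18.1%) and 17.3% (15.7–19.0%), apart from TRBJ1-4 in the Btla-/- library but not in the WT library. TRBJ1-3 had 258 and 316 chains, or 15.6% (13.9–17.5%) and 15.2% (13.7–16.8%), and overlapped with TRBJ1-2 in both libraries. The last segments in use were the least used, TRBJ1-5 with 141 and 198 chains, or 8.55% (7.25–10.0%) and 9.52% (8.30–10.9%), and TRBJ1-6 with 171 and 185 chains, or 10.4% (8.94–11.9%) and 8.90% (7.71–10.2%). These segments overlapped with each other and were apart from TRBJ1-3 in both libraries. Set beside the heptamer matches, TRBJ1-1, with 7, was the most used, and TRBJ1-5, with 6, was used less than TRBJ1-4, with 4. Whether the recombination signals bear on the shares was not tested. TRBJ1-7 was found in 0 chains, with limits of 0.182% of WT and 0.144% of Btla-/- TRBJ1 chains. Since the deposited contigs were all full-length and productive, this count does not show whether TRBJ1-7 was rearranged. As shares of TRB chains, 0 of the 6 segments in use were apart between the libraries, where 5.66% of 53 TRAJ and TRBJ segments were. The widest of the 6 differences was TRBJ1-4, at 0.770 percentage points more in the Btla-/- library (-0.351 to 1.88), and TRBJ1-1 was lower there by a difference of -0.691 (-2.01 to 0.610).

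**Figure D1:**
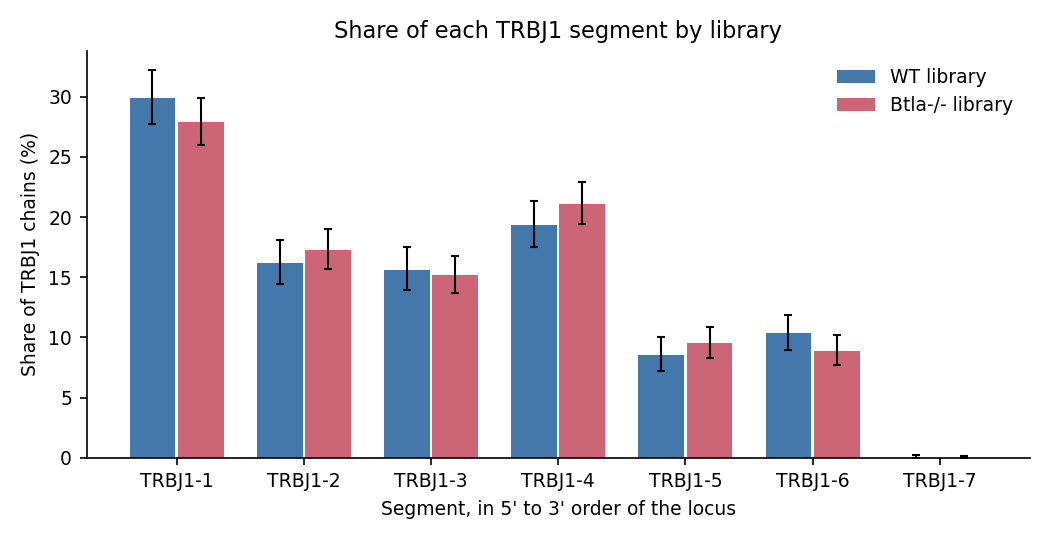
Share of each TRBJ1 segment among the TRBJ1 chains of a library, in percent, with segments in their order along the locus. Bars show the WT (1649 chains) and Btla-/- (2079 chains) libraries and error bars their exact 95% intervals. TRBJ1-1 stands highest at 29.9% and 27.9%, TRBJ1-5 and TRBJ1-6 stand lowest among the segments in use, and TRBJ1-7 is at 0.

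Nearly every TRBJ1 chain was annotated with TRBC1. This was so for 1642 of 1649 WT chains, or 99.6% (99.1–99.8%), and 2052 of 2079 Btla-/- chains, or 98.7% (98.1–99.1%). TRBC2 was called for 0 TRBJ1 chains, which allows up to 0.182% and 0.144%, and TRBC1 for 0 of 2492 WT and 0 of 3102 Btla-/- TRBJ2 chains, which allows up to 0.120% and 0.0967%. The 7 WT and 27 Btla-/- TRBJ1 chains left had no constant gene call, against 2 and 3 TRBJ2 chains. The share without a call was 0.424% (0.171–0.873%) in WT cells and 1.30% (0.858–1.88%) in Btla-/- cells, and these intervals overlap narrowly. Chains without a call were shallow, with a median of 2 UMIs in both libraries, and with at least 3 UMIs the share was 0.0625% (0.00158–0.348%) and 0.349% (0.140–0.718%). The genes that the call has to tell apart are nearly identical at their start. The first exons of TRBC1 and TRBC2, 375 bases each in GRCm38, differ at 1 base, number 260 from the exon start. In 1417 of the 1642 WT and 1820 of the 2052 Btla-/- TRBJ1 chains with a call, or 86.3% and 88.7%, the contig held fewer than 260 bases outside the framework and CDR stretches, so it could not reach that base. In the other 225 and 232 chains it could have reached it, if few of those bases lay before the V segment. Whether the TRBC1 calls were made from the J segment was not tested.

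TRBJ1 junctions carried bases of TRBD1 far more often than bases of TRBD2. TRBD1 and TRBD2 are shown because they are short and alike, TRBD1 with 12 bases and TRBD2 with 14.
TRBD1: gggacagggggc
TRBD2: gggactgggggggc
The annotation named TRBD1 in 355 WT and 444 Btla-/- TRBJ1 chains, or 21.5% (19.6–23.6%) and 21.4% (19.6–23.2%), TRBD2 in 3 and 1 chains, and no D gene in 1291 and 1634. TRBJ2 chains of the same libraries were called TRBD1 in 13.5% (12.2–14.9%) and 12.0% (10.9–13.2%), and TRBD2 in 11.2% (9.95–12.5%) and 11.7% (10.6–12.9%). A count that does not use the annotation looked, on the coding strand, for words of 5 bases that occur in 1 of the D segments and not in the other, within the bases between the V and J matches. Words of TRBD1 alone were found in 62.8% (60.4–65.1%) of WT and 63.9% (61.8–65.9%) of Btla-/- TRBJ1 chains, and words of TRBD2 alone in 2.43% (1.74–3.29%) and 2.07% (1.50–2.78%). Among TRBJ2 chains words of TRBD1 alone were found in 31.7% (29.9–33.6%) and 31.2% (29.6–32.9%), and words of TRBD2 alone in 40.7% (38.8–42.6%) and 41.1% (39.4–42.9%). A word can also arise from added bases.

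The residues that a J segment gives to the CDR3 were read from the chains. The CDR3 part of TRBJ1-1 encodes NTEVFF and that of TRBJ1-2 NSDYTF, both with 6 whole residues. TRBJ1-3 encodes SGNTLYF, TRBJ1-4 SNERLFF and TRBJ1-5 NNQAPLF, with 7 residues each, and TRBJ1-6 encodes SYNSPLYF, with 8. The stretch after the CDR3, the fourth framework, was identical to the germline in each of the 1649 WT and 2079 Btla-/- chains. Within the CDR3 the full set of these whole residues was kept most often by TRBJ1-2, in 191 of 267 WT and 247 of 360 Btla-/- chains, or 71.5% (65.7–76.9%) and 68.6% (63.5–73.4%). The full set was kept least often by TRBJ1-6, in 45 of 171 and 50 of 185 chains, or 26.3% (19.9–33.6%) and 27.0% (20.8–34.0%). These shares count residues, not bases, and the sets hold 6, 7 or 8 residues by segment. Bases before the first whole codon, whose number also differs by segment, can be lost without lowering them. Between them lay TRBJ1-3 at 64.7% and 63.9%, TRBJ1-1 at 53.1% and 51.1%, TRBJ1-4 at 45.8% and 42.4%, and TRBJ1-5 at 44.0% and 39.9%, with WT given first. This order was the same in both libraries, although TRBJ1-2 overlapped with TRBJ1-3, TRBJ1-1 with TRBJ1-4 and TRBJ1-4 with TRBJ1-5 in both. TRBJ1-5 and TRBJ1-6 were apart in the WT library and overlapped in the Btla-/- library.

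Changes were found at the 5' end of the segments. The outermost residue was kept in 53.1% and 51.1% of TRBJ1-1 chains, while the last 2 residues of the CDR3 were kept in 99.5% or more of the chains of that segment. The outermost S of TRBJ1-6 was kept in 26.9% (20.4–34.2%) of WT and 28.1% (21.8–35.2%) of Btla-/- chains, and G stood in its place in 25.1% and 25.4%. The next residue of TRBJ1-6, Y, was kept in 53.8% (46.0–61.4%) and 49.7% (42.3–57.2%). G, which the D segments encode in several frames, was the most frequent replacement of the outermost residue in 5 of the 6 segments in WT cells and 4 of 6 in Btla-/- cells. Of the 41 germline residues in the 6 segments, 1, or 2.44%, was apart between the libraries. This was the N at position 2 of TRBJ1-4, counted from the 5' end, kept in 267 of 319 WT chains, or 83.7% (79.2–87.6%), and 324 of 439 Btla-/- chains, or 73.8% (69.4–77.9%).

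Traced base by base, TRBJ1 segments differed in how much of their 5' end was missing. The number of missing bases is the germline length less the longest match that runs from the end of the fourth framework towards the V segment, so an added base that equals the germline counts as kept. TRBJ1-3 lost least, with a mean of 1.46 bases (SD 2.13, n = 258) in WT cells and 1.32 (SD 1.95, n = 316) in Btla-/- cells, and 54.7% (48.4–60.8%) and 57.3% (51.6–62.8%) of its chains kept every base. TRBJ1-2 was close, at 1.55 bases (SD 1.72, n = 267) and 1.64 (SD 1.65, n = 360). TRBJ1-6 lost most, at 4.17 bases (SD 2.95, n = 171) and 4.30 (SD 3.06, n = 185), and 13.5% (8.72–19.5%) and 22.7% (16.9–29.4%) of its chains were intact. TRBJ1-1 at 2.69 and 2.88 bases, TRBJ1-4 at 2.82 and 3.22 and TRBJ1-5 at 2.61 and 2.73 lay between, with WT given first. The germline ends show that TRBJ1-1 and TRBJ1-2 begin with the same 5 bases, CAAAC, yet the mean loss was 2.69 against 1.55 in WT cells and 2.88 against 1.64 in Btla-/- cells. The widest difference between the libraries was in TRBJ1-4, at 0.392 bases more in the Btla-/- library, with a counting SE of 0.184. Over the whole cluster the loss was 2.48 bases (SD 2.51) and 2.61 (SD 2.64), where TRBJ2 chains lost 2.70 and 2.68.

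**Figure D2:**
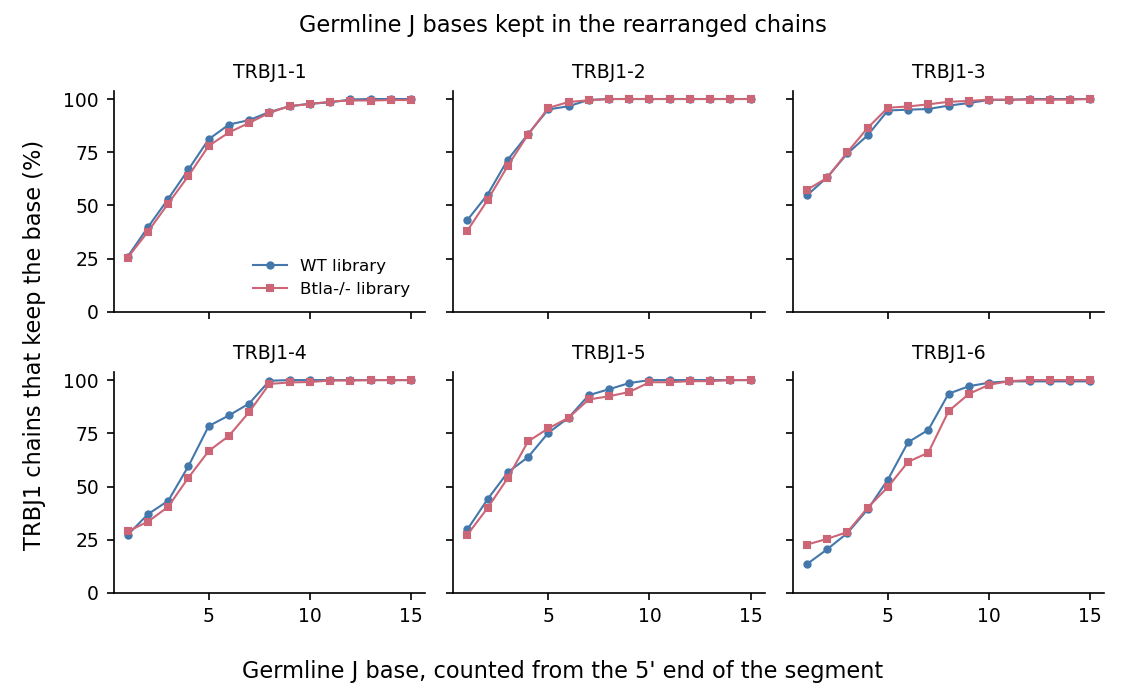
Percent of chains of each TRBJ1 segment that keep a germline J base, for bases 1 to 15 counted from the 5' end of the segment, in the WT and Btla-/- libraries. Lines rise towards 100% within the first 10 bases. Base 1 is kept in 54.7% and 57.3% of TRBJ1-3 chains and in 13.5% and 22.7% of TRBJ1-6 chains.

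TRBJ1 and TRBJ2 chains differed in the makeup of the junction more than in its length. The CDR3 of TRBJ1 chains had a mean of 14.1 amino acids (SD 1.42, n = 1649) in WT cells and 14.2 (SD 1.45, n = 2079) in Btla-/- cells. TRBJ1 minus TRBJ2 was -0.119 residues in WT cells and -0.173 in Btla-/- cells, with counting SEs of 0.0471 and 0.0423. The bases between the V and J matches, which hold the D segment and added bases, numbered 9.80 (SD 3.73) and 9.93 (SD 3.76) in TRBJ1 chains and 11.0 and 11.3 in TRBJ2 chains. This was a difference of -1.21 bases (SE 0.123) in WT cells and -1.34 (SE 0.110) in Btla-/- cells. The J segment gave 19.1 and 19.0 bases of the CDR3 in TRBJ1 and 18.1 and 18.2 in TRBJ2 chains, a difference of 0.970 (SE 0.0897) and 0.772 (SE 0.0819). The part from the V segment was 13.5 and 13.6 bases in TRBJ1 chains, where the difference from TRBJ2 chains was -0.115 (SE 0.0700) and 0.0445 (SE 0.0622). Thus the shorter middle and the longer J part of TRBJ1 chains ran in opposite directions in both libraries. By segment, the mean J part did not separate the clusters. TRBJ2-7 gave 15.5 bases in WT and 15.3 in Btla-/- cells, while the other TRBJ2 segments in use gave 18.1 to 20.9. TRBJ1 segments in use gave 17.1 to 20.8. The mean middle was 9.34 to 10.3 bases in TRBJ1 segments and 10.5 to 11.6 in TRBJ2 segments.

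CDR3 length varied by segment within the cluster. TRBJ1-1 chains were shortest, at 13.6 residues in both libraries (SD 1.51 in each, n = 493 and 581), and 48 and 55 of them had at most 11 residues. TRBJ1-5 chains had 13.9 (SD 1.28) and 14.2 (SD 1.32), and TRBJ1-2 chains 14.0 (SD 1.07) and 13.8 (SD 1.27), so that TRBJ1-5 was next in the WT library and TRBJ1-2 in the Btla-/- library. TRBJ1-2 chains were the least varied, with 40.4% (34.5–46.6%) of WT and 33.9% (29.0–39.0%) of Btla-/- chains at exactly 14 residues. TRBJ1-6 chains had 14.8 (SD 1.34) and 14.5 (SD 1.47), TRBJ1-3 chains 14.6 (SD 1.37) and 14.7 (SD 1.31), and TRBJ1-4 chains 14.5 (SD 1.34) and 14.6 (SD 1.38). The longest mean was thus that of TRBJ1-6 in WT cells and TRBJ1-3 in Btla-/- cells. Between the libraries the means of single segments differed by -0.274 (SE 0.149) in TRBJ1-6 to 0.261 (SE 0.143) in TRBJ1-5, Btla-/- minus WT, and by 0.0248 (SE 0.0473) over the cluster.

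**Figure D3:**
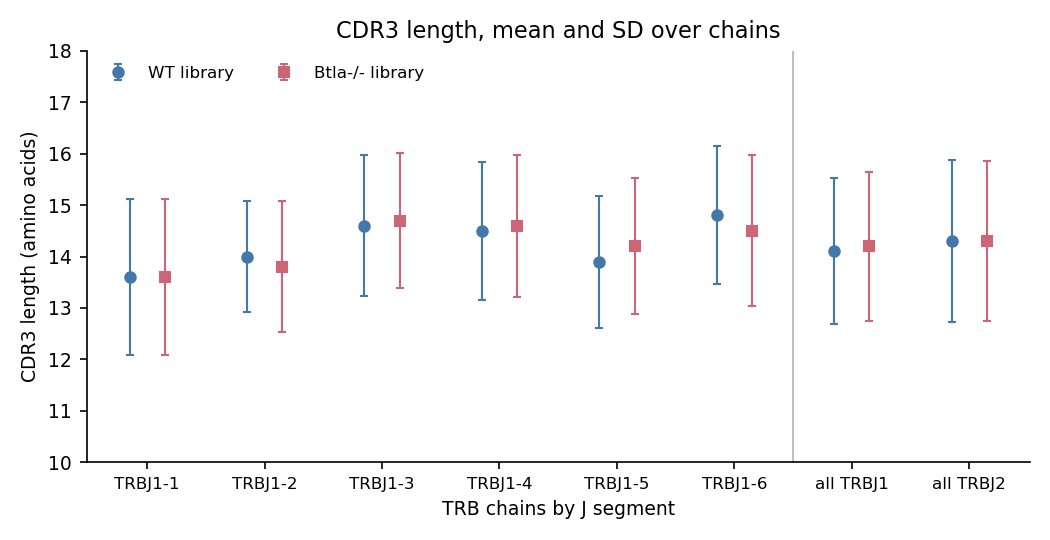
Mean CDR3 length in amino acids of the chains of each TRBJ1 segment and of all TRBJ1 and all TRBJ2 chains, in the WT and Btla-/- libraries. Points are means and error bars the SD over chains, and the axis begins at 10 residues. TRBJ1-1 chains lie lowest, at 13.6, and the SDs of the segments overlap.

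The V segment encodes CDR1 and CDR2, which mainly meet the MHC molecule. TRBV13 and TRBV12 led the partners of the TRBJ1 cluster in both libraries. TRBV13 was found in 12.9% (11.3–14.6%) of WT and 13.2% (11.8–14.7%) of Btla-/- TRBJ1 chains, and TRBV12 in 11.9% (10.4–13.6%) and 11.8% (10.4–13.2%). Next came TRBV19 in the WT library, described further on, and in the Btla-/- library a joint call naming both TRBV12-2 and TRBV13-2. TRBV5 was at 6.73% (5.57–8.05%) and 6.78% (5.74–7.95%). The joint call, whose sequence is that of annotated TRBV13-2, was found in 6.67% (5.51–7.98%) and 6.88% (5.83–8.05%). TRBV1, among the 5 most used in the Btla-/- library, was at 5.70% (4.63–6.93%) and 6.30% (5.29–7.43%). Between the libraries, 1 of 17 subgroups was apart among TRBJ1 chains, where 11.1% of 18 subgroups were over all TRB chains. It was TRBV19, in 146 of 1649 WT chains, or 8.85% (7.53–10.3%), and 114 of 2079 Btla-/- chains, or 5.48% (4.54–6.55%). The difference was -3.37 percentage points (-5.09 to -1.71) among TRBJ1 and -0.522 (-1.78 to 0.706) among TRBJ2 chains, and the difference between these was not tested. By segment, the TRBV19 share was lower in the Btla-/- library in TRBJ1-1, at 5.34% against 10.8%, and in TRBJ1-3, TRBJ1-4, TRBJ1-5 and TRBJ1-6, and it was 4.17% against 4.12% in TRBJ1-2. TRBV16 was at 4.24% (3.32–5.33%) in WT cells and 6.01% (5.03–7.12%) in Btla-/- cells, and TRBV3 at 6.55% (5.40–7.85%) and 4.81% (3.93–5.82%). These intervals overlap, although the intervals of the differences exclude 0, at 1.77 percentage points (0.331 to 3.17) and -1.74 (-3.29 to -0.252).

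Within a library, few subgroups set TRBJ1 chains apart from TRBJ2 chains. In the WT library this was so for 1 of 17 subgroups, or 5.88%, and in the Btla-/- library for 2 of 18, or 11.1%, and no subgroup was apart in both. In the WT library it was TRBV19, at 8.85% of TRBJ1 and 6.10% (5.19–7.11%) of TRBJ2 chains. In the Btla-/- library it was TRBV29, at 5.87% (4.90–6.97%) against 3.38% (2.78–4.08%), and TRBV3, at 4.81% against 6.67% (5.82–7.61%). TRBV29 was also higher among TRBJ1 chains of the WT library, at 4.67% (3.70–5.80%) against 3.73% (3.02–4.55%), but the intervals overlap. The joint call was lower among TRBJ1 chains by differences of -2.08 (-3.69 to -0.402) and -1.57 (-3.01 to -0.0751) percentage points. TRBV17 was lower by differences of -1.33 (-2.30 to -0.311) and -1.07 (-1.92 to -0.183), and TRBV26 was higher by 1.35 (0.235–2.57) and 1.04 (-0.0486 to 2.20).

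The sharpest departures lay in single pairs of a V subgroup and a J segment, which were chosen after their values were seen. Each of 204 pairs was set against the share of the subgroup among the other TRB chains of its library, and 3 pairs, or 1.47%, were apart in the same direction in both libraries. All 3 of these were TRBJ1 pairs and all 3 were low. TRBV15 was found in 1 of 171 WT and 1 of 185 Btla-/- TRBJ1-6 chains, or 0.585% (0.0148–3.22%) and 0.541% (0.0137–2.97%), where other TRB chains held 5.87% and 5.70%. At the TRBV15 share over all TRB chains, 5.65% and 5.52%, the expected numbers were 9.66 and 10.2 chains. TRBV15 was also found in 4 of 267 and 7 of 360 TRBJ1-2 chains, or 1.50% (0.410–3.79%) and 1.94% (0.785–3.97%), against 5.94% and 5.79% elsewhere. TRBV3 was found in 3 of 171 and 2 of 185 TRBJ1-6 chains, or 1.75% (0.363–5.04%) and 1.08% (0.131–3.85%), against 6.50% and 6.10%. The neighbouring TRBJ1-1 and TRBJ1-3 held TRBV15 at 7.30% and 7.36% in WT cells and 7.06% and 6.96% in Btla-/- cells. In TRBJ1-5 it stood at 6.38% (2.96–11.8%) in WT cells and 2.53% (0.825–5.79%) in Btla-/- cells.

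Across the 102 TRBJ1 pairs, the log2 ratio of the observed number of chains to the number expected from all TRB chains in the WT library correlated with that in the Btla-/- library with a Pearson r of 0.540 and a Spearman rho of 0.337. Across the 102 TRBJ2 pairs r was 0.0956 and rho 0.116. These are descriptions across pairs, which share chains within a segment and a subgroup and are not independent, and the low counts of some pairs widen their ratios. By the total variation distance of TRBV usage, which is 0 for equal usage and 1 for no overlap, TRBJ1-2 in WT cells and TRBJ1-6 in Btla-/- cells lay, among the TRBJ1 segments, farthest from their nearest segment. The nearest segment to TRBJ1-6 was TRBJ1-5 at 0.166 in WT cells and TRBJ1-2 at 0.181 in Btla-/- cells. TRBJ1-1 and TRBJ1-3 were the nearest to each other in the WT library, at 0.0740, while in the Btla-/- library both had TRBJ2-1 as nearest, at 0.0828 and 0.0996. The nearest to TRBJ1-4 was TRBJ2-7 at 0.0918 and TRBJ2-1 at 0.106, to TRBJ1-2 TRBJ2-1 at 0.183 and TRBJ1-4 at 0.142, and to TRBJ1-5 TRBJ1-1 at 0.133 and TRBJ1-2 at 0.146, with WT given first. No segment had the same nearest segment in both libraries, and counting error adds to the distances of segments with few chains.

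**Figure D4:**
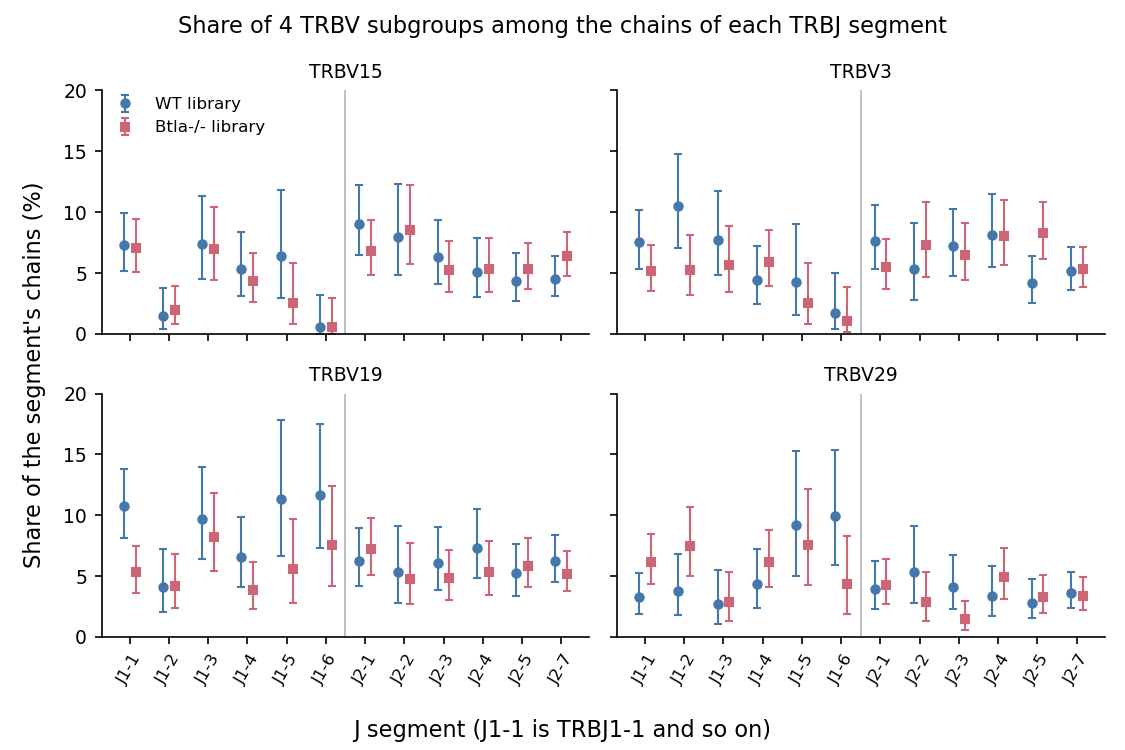
Share in percent of TRBV15, TRBV3, TRBV19 and TRBV29 among the chains of each TRBJ segment, in the WT and Btla-/- libraries, with exact 95% intervals. A grey line separates the TRBJ1 from the TRBJ2 segments. TRBV15 lies at 0.541% to 1.94% in TRBJ1-2 and TRBJ1-6 and TRBV3 at 1.75% and 1.08% in TRBJ1-6, below the shares of 5.70% to 6.50% among other TRB chains.

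Most TRBJ1 chains were found in a single cell. The 1649 WT chains held 1580 distinct chains, defined by V gene, J gene and CDR3 bases, and the 2079 Btla-/- chains 1992. The 2492 WT and 3102 Btla-/- TRBJ2 chains likewise held 2399 and 2960 distinct chains. TRBJ1 chains found in 2 or more cells of a library numbered 53 and 82, with at most 4 and 3 cells. Their CDR3 amino acid sequences common to both libraries numbered 44, or 2.84% of 1552 WT and 2.24% of 1965 Btla-/- distinct sequences. TRBJ2 chains had nearly the same shares, with 69 common sequences, or 2.91% of 2371 WT and 2.36% of 2920 Btla-/- sequences. Of the 44, TRBJ1-1 and TRBJ1-2 gave 14 each, TRBJ1-4 gave 6, TRBJ1-3 gave 5, TRBJ1-5 gave 4 and TRBJ1-6 gave 1. For TRBJ1-2 these were 5.56% of WT and 4.14% of Btla-/- distinct sequences, and for TRBJ1-6 they were 0.633% and 0.571%. The chains that carry the shared sequences had a mean of 13.5 residues in both libraries and 7.78 and 7.42 bases between the V and J matches, where the other TRBJ1 chains had 14.2 residues and 9.86 and 9.99 bases. At the level of bases, 4 TRBJ1 CDR3 sequences were common to both libraries, or 0.254% of WT and 0.201% of Btla-/- distinct sequences. TRBJ2 chains had 10, or 0.418% and 0.339%. The 4 TRBJ1 sequences are shown with capitals marking the match to the J segment. Lower case holds both the V match and the bases between the V and J matches.
TRBJ1-4: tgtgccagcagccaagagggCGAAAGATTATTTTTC
TRBJ1-2: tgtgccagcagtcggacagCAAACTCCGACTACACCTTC
TRBJ1-5: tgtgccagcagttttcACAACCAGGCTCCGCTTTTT
TRBJ1-2: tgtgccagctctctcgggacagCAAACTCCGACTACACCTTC
Between the V and J matches they held 3, 7, 2 and 7 bases in the order printed, and both TRBJ1-2 sequences kept the J segment whole. Of the 4, only the last was joined to the same V gene in both libraries, TRBV12-1. In the other 3 the V genes differed, TRBV5 against TRBV2, TRBV13-3 and TRBV14 against TRBV19, and TRBV15 against TRBV14, with WT given first. The libraries shared 30 cell barcodes, which 13 WT and 7 Btla-/- TRBJ1 chains carried.

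TRBJ1 chains were then followed into their cells. Cells with TRBJ1 and no TRBJ2 chain, called TRBJ1 cells here, numbered 1566 of 4009 WT and 1967 of 5014 Btla-/- cells with a TRB chain. A further 62 and 77 cells held a chain of each cluster. A TRA chain was recovered in 642 WT TRBJ1 cells, or 41.0% (38.5–43.5%), and 630 Btla-/- TRBJ1 cells, or 32.0% (30.0–34.1%), which are apart. TRBJ2 cells of the same libraries stood at 40.7% (38.7–42.7%) and 34.6% (32.9–36.4%). Since depth differed between the libraries, TRBJ1 cells with 1 TRB chain were split by the UMIs of that chain. With 1 to 4 UMIs a TRA chain was found in 40.4% (33.3–47.9%) of WT and 33.2% (27.9–38.9%) of Btla-/- cells. With 5 to 9 UMIs the shares were 40.1% (35.3–45.0%) and 31.2% (27.7–34.9%), and with 10 to 19 UMIs they were 42.3% (38.1–46.6%) and 32.2% (28.6–35.9%). With 20 or more UMIs the shares were 37.5% (32.8–42.3%) and 24.8% (20.2–30.0%). The libraries were thus apart in 3 of the 4 ranges and overlapped in the lowest. TRBJ2 cells split in the same way were apart with 10 to 19 UMIs, at 43.4% (40.0–46.8%) against 35.9% (32.9–38.9%). They overlapped in the other ranges. The cause of the difference in TRA recovery was not tested. Every cell with more than 1 TRB chain held a TRA chain. This held for the 21 WT and 35 Btla-/- cells with more than 1 TRBJ1 chain and the 62 and 77 cells with both clusters. It also held for the 49 and 55 cells with more than 1 TRBJ2 chain. Whether cell calling set this was not tested. The shares of 41.0% and 32.0% above include the cells with more than 1 TRBJ1 chain.

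The alpha chains of TRBJ1 cells were led by TRAV6 and TRAV7, followed by TRAV12 in WT cells and TRAV14 in Btla-/- cells. Among 698 WT and 674 Btla-/- TRA chains of TRBJ1 cells, TRAV6 was at 13.6% (11.2–16.4%) and 15.3% (12.6–18.2%), and TRAV7 at 12.0% (9.71–14.7%) and 13.8% (11.3–16.6%). TRAV12 was at 11.9% (9.58–14.5%) and 11.7% (9.39–14.4%). TRAV14 was at 7.88% (5.99–10.1%) and 11.9% (9.52–14.6%), the widest of the differences between the libraries, at 3.99 percentage points (0.832–7.19). TRAV16 was at 5.16% (3.64–7.07%) and 2.52% (1.48–4.01%), and TRAV9 at 7.45% (5.61–9.65%) and 5.34% (3.77–7.32%). Their differences were -2.64 (-4.76 to -0.592) and -2.11 (-4.74 to 0.505) percentage points. Intervals overlapped for each of the 17 subgroups, where 6.25% of 16 subgroups were apart over all TRA chains. TRBJ1 and TRBJ2 cells were apart for 0 of 16 subgroups in each library. The widest differences with one sign in both libraries by their mean, TRBJ1 minus TRBJ2, were -1.05 (-4.14 to 2.18) and -2.52 (-5.85 to 0.970) for TRAV7, 1.20 (-1.28 to 3.85) and 2.32 (-0.329 to 5.17) for TRAV4, and 1.34 (-1.62 to 4.47) and 0.964 (-2.00 to 4.11) for TRAV12. At this depth differences of a few percentage points between the clusters were not detectable. TRAJ segments numbered 1 to 30, which lie nearer to TRAC and were grouped with earlier results known, made up 48.9% (45.1–52.6%) of WT and 57.1% (53.3–60.9%) of Btla-/- TRA chains in TRBJ1 cells, and 48.3% (45.3–51.4%) and 57.9% (54.9–60.8%) in TRBJ2 cells.

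**Figure D5:**
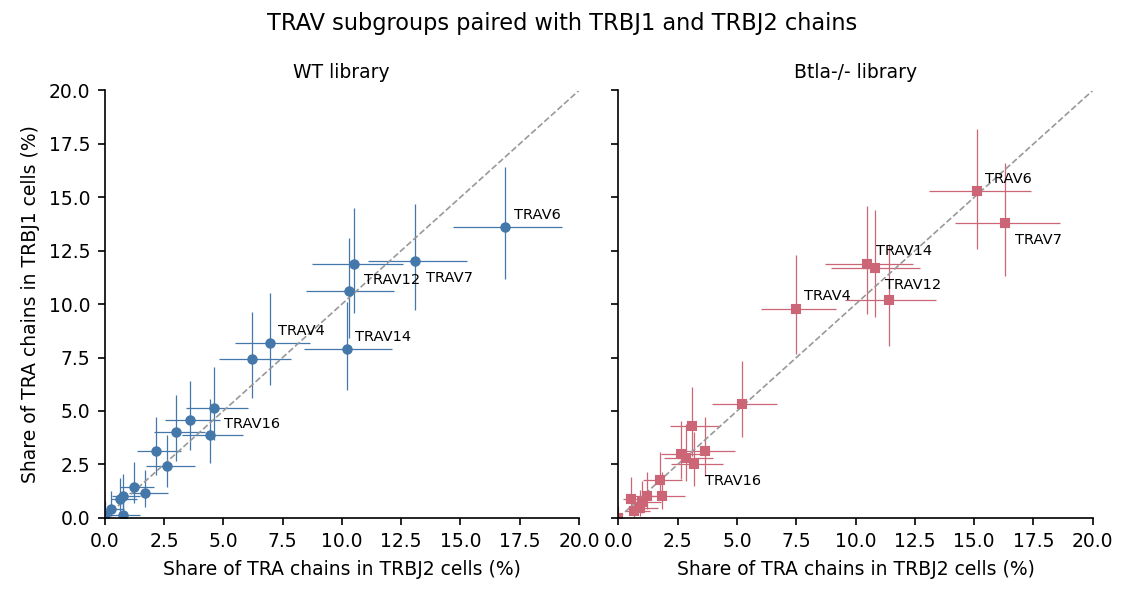
Share in percent of each TRAV subgroup among TRA chains of TRBJ1 cells (vertical axis) against TRBJ2 cells (horizontal axis) in the WT and Btla-/- libraries, with exact 95% intervals. The dashed line marks equal shares. Subgroups lie along the line, TRAV6 with 13.6% in WT and 15.3% in Btla-/- TRBJ1 cells, and 0 of 16 subgroups were apart in either library.

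Few TRBJ1 cells had the alpha chain of an innate-like T cell, and the same held for TRBJ2 cells. The TRAV11 with TRAJ18 chain of invariant natural killer T cells was found in 3 of 642 WT and 4 of 630 Btla-/- TRBJ1 cells with a TRA chain, or 0.467% (0.0965–1.36%) and 0.635% (0.173–1.62%). Among TRBJ2 cells with a TRA chain it was found in 0.516% (0.168–1.20%) and 0.486% (0.158–1.13%). The TRAV1 with TRAJ33 chain of mucosal-associated invariant T cells was found in 0 TRBJ1 cells, which allows up to 0.467% and 0.476%. It was found in 2 of 969 WT and 1 of 1028 Btla-/- TRBJ2 cells.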

How the data were processed

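Single-cell TCR libraries of thymic CD4 SP T cells, 1 WT and 1 Btla-/-, were sequenced with the 10x Genomics V(D)J workflow. The authors mapped the reads and annotated contigs with Cell Ranger 7.2.0 and its prebuilt GRCm38 reference, and the tables they deposited list, for every contig, its read count and UMI count without normalisation. All deposited contigs were full-length, productive and of called cells, so failed rearrangements are absent. TRBJ1 chains rested on 25899 UMIs (WT) and 25698 UMIs (Btla-/-). The authors' summary tables of V usage, CDR3 length and clones were not used. Doublets were not called or removed.

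Germline segments were read from GRCm38.p6 by GENCODE M21 coordinates. Of 22 V gene names, 21 matched the annotated gene of that name, and TRBV10 carried the sequence annotated as TRBV4. V genes were grouped by subgroup number. Shares carry exact 95% intervals, and differences in percentage points carry Newcombe intervals. Subgroups under 1% on both sides of a comparison were left out. The text names each TRBJ1 segment in use, the 5 TRBV and 3 TRAV subgroups most used in each library, the 4 TRBV and 3 TRAV subgroups that differed most between clusters, the 3 of each that differed most between libraries, and the nearest segment among those with at least 50 chains. Members and lists were chosen with earlier results of these data known. Values were recomputed from chains of 3 or more UMIs, from cells holding 1 TRA and 1 TRB chain, from 1 TRB chain per cell, from distinct chains, without barcodes of both libraries, with the joint call as TRBV13 and with 1 mismatched base in the J match. The interval and J match functions were tested on simulated data. Python 3.11.15, pandas 2.3.3, NumPy 2.4.6, SciPy 1.17.1 and matplotlib 3.10.9 were used.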

Additional observations from a re-analysis of the deposited data

How the results depend on the processing

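Of 195 values recomputed under an alternative, 182 stayed within the interval of the reported value and 13 moved out of it. The TRBV19 difference among TRBJ1 chains, the value that could change sign, ranged from -3.58 to -3.09 percentage points. With contigs of at least 3 UMIs, TRBC1 was called for 99.9% of WT and 99.7% of Btla-/- TRBJ1 chains. Cells with exactly 1 TRA and 1 TRB chain left 569 WT and 556 Btla-/- TRBJ1 chains, and 9 of the 13 values moved there. The TRBJ1 share of Btla-/- TRB chains was then 37.9%, TRBJ1-5 had 7.03% of WT and 11.3% of Btla-/- TRBJ1 chains, TRBJ1-1 had 30.2% and TRBJ1-6 had 6.47% of Btla-/- TRBJ1 chains, and the mean CDR3 length was 14.1 residues in both libraries. TRBV15 was found in 0 of the WT TRBJ1-2 and TRBJ1-6 chains of such cells, and in 1.06% (0.0269 to 5.79%) of Btla-/- TRBJ1-2 and 2.78% (0.0703 to 14.5%) of Btla-/- TRBJ1-6 chains. The last interval holds the 5.70% of TRBV15 among other TRB chains of the whole Btla-/- library. With the joint call counted as TRBV13, this subgroup rose to 19.6% of WT and 20.1% of Btla-/- TRBJ1 chains. The cause was not tested, apart from the fewer chains and the added call that these settings bring by construction. No paired analysis was possible because each genotype has 1 library, so the replicate number joins no pair within a fit. Shares of the smaller segments are limited by depth, since TRBJ1-5 and TRBJ1-6 rest on 141 to 198 chains per library.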
